A study of Mus musculus with 7 samples.

Results

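PMP22 is a small glycoprotein of compact myelin with 4 membrane-spanning segments. Its gene was followed here together with its paralogs Emp1, Emp2 and Emp3 and with Prx and Egr2, the genes of a Schwann cell scaffold protein and of the transcription factor that drives peripheral myelin genes. These 6 genes were taken by name from the 22880 genes of the table, and they were picked with the contrast between the genotypes already known, so their own values are a description and carry no test. RNA was measured in optic nerves at P14, both nerves of 1 mouse making 1 sample. The control samples (CT, n = 4) came from Fasn lox/lox mice without Cre, and the mutant samples (cMU, n = 3) from Fasn lox/lox mice that also carried Olig2-Cre. By these labelled genotypes both groups were homozygous for the floxed allele. It arose in 129X1/SvJ, went through crosses with 129X1/SvJ, C57BL/6 and DBA, and was then backcrossed to C57BL/6, so traces of a mixed background can remain. Cre under the Olig2 promoter deletes Fasn in the oligodendrocyte (OL) lineage, whereas cells of the nerve without Cre keep an intact gene. Every value is a mean over all cells of the nerve, in which more cells of a type and more RNA per cell cannot be told apart.

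In peripheral nerves, Schwann cells make myelin around axons, and EGR2 together with SOX10 and the NAB cofactors switches on the genes of that sheath, among them Pmp22 and Prx. The amount of PMP22 matters for the sheath: an extra gene copy causes the demyelinating neuropathy Charcot-Marie-Tooth disease type 1A, and loss of a copy causes a neuropathy with liability to pressure palsies. The EMP proteins share the membrane topology of PMP22 and are best known from epithelia, endothelia and immune cells. The optic nerve belongs to the central nervous system, where OLs, not Schwann cells, make the myelin.

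The 4 family members are related in sequence but share only short runs of identical bases. Between pairs of coding sequences, identity ran from 51.4% for Emp1 and Emp3 to 61.8% for Emp1 and Emp2, and Pmp22 was identical to Emp1, Emp2 and Emp3 at 55.1%, 56.7% and 53.0% of the aligned bases. The longest run shared by any transcripts of a pair was 22 bases, between Pmp22 and Emp2, against a read length of 125 bases. The open reading frames encode 160 amino acids in Pmp22 and Emp1, 172 in Emp2 and 163 in Emp3. The stretch of the coding sequence that is most alike in the family is shown to let the relationship be seen. It lies in exon 4 of each gene, and capitals mark the 33 of 60 bases that are identical in all 4 genes (GENCODE, GRCm38).
Pmp22, chr11:63151128-63151187, plus strand: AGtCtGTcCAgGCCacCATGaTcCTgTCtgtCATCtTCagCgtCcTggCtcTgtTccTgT
Emp1, chr6:135380110-135380169, plus strand: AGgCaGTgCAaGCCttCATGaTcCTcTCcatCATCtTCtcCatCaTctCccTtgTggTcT
Emp2, chr16:10285527-10285586, minus strand: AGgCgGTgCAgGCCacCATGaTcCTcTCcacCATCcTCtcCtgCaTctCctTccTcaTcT
Emp3, chr7:45919390-45919449, minus strand: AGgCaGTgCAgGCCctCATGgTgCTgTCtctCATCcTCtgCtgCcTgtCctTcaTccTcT

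The start regions of the genes were searched for the letters of 3 factors of the Schwann cell programme, on both strands. RefSeq start windows on GRCm38.p6, each from 250 bases before to 50 bases after a start, were there for all 6 genes, with 4 windows for Pmp22, 2 for Emp1, 1 for Emp2, 2 for Emp3, 1 for Prx and 5 for Egr2, some of which overlap. The letters GGAATG, recognised by TEAD factors, were found in 1 of the 4 windows of Pmp22, in that of Prx and in 1 of the 5 windows of Egr2, and 14.7% of all 32851 windows hold them. They began at position -173 from the start in Pmp22, at -37 in Prx and at -127 in Egr2. Neither GCGNGGGCG for EGR factors, present in 5.55% of all windows, nor ACAAAG for SOX factors, present in 18.7%, was found in these windows of the 6 genes. The stretches before the start of Pmp22 and Emp2 are given because control and mutant samples were apart in these members, and capitals mark the TEAD letters on the minus strand. The start of Pmp22 shown is the first of its 4.
Pmp22, chr11:63128732-63128981, plus strand: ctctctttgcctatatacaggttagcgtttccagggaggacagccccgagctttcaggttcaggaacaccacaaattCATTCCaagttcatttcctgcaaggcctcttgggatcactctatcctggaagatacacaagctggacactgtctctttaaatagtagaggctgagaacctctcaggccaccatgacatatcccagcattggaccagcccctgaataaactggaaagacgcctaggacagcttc
Emp2, chr16:10313969-10314218, minus strand: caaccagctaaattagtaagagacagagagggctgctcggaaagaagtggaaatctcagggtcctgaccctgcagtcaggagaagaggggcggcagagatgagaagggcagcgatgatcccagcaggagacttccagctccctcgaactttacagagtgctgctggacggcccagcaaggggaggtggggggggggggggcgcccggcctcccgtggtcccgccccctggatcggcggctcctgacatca

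Some properties of the samples touch all values that follow. The samples held 27457249 to 43463397 reads. Control nerves had 205 ± 25.1 FPKM of Fasn (SD, n = 4; FPKM are reads scaled for transcript length and library size) and mutant nerves 56.3 ± 11.3 (SD, n = 3), without overlap. The defining genes of Schwann cells were low. Pmp2, Dhh and Foxd3 were below 1 FPKM in every sample, and the summed FPKM of 8 Schwann cell markers was 22.3 to 26.4 in control and 21.7 to 27.9 in mutant samples, most of it from Cdh19 and Drp2, while 7 OL markers summed to 31775 to 33974 and to 22929 to 30008. Pmp2, the gene of a fatty acid binding protein of Schwann cells, had 0.319 FPKM in control sample 2 and 0.336 in mutant sample 1, against 0 to 0.0374 in the other 5 samples. Mutant sample 1 also stood apart in genes of the meninges, with the highest level of all samples in 9 of 9 meningeal fibroblast markers and 4 of 4 arachnoid barrier markers. Mutant sample 2 stood apart in skeletal muscle genes, with a sum of 65.5 FPKM over 5 markers against 2.1 to 5.0 in the other samples.

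Pmp22 was the most abundant of the 6 genes and was higher in all mutant samples than in any control sample. The gene (ENSMUSG00000018217) lies at chr11:63128982-63159547 on the plus strand of GRCm38, 57.6 Mb from Fasn on the same chromosome. Control samples 1 to 4 had 97.0, 90.8, 90.0 and 94.5 FPKM. Mutant samples 1 to 3 had 146.6, 128.1 and 113.8 FPKM. The control samples lay within a narrow band, and the mutant samples were spread over a wider one above it. Mutant sample 1, the highest in meningeal markers, was at the top. The means were 93.1 ± 3.27 (SD, n = 4) and 129.5 ± 16.4 (SD, n = 3), a ratio of 1.39. On the scale of log2(FPKM + 0.5) the difference was 0.47 (standard error 0.0846), from 3755 to 6652 reads per sample. Without mutant sample 1 it was 0.37, and without mutant sample 1 and control sample 2, the samples highest in Pmp2, it was 0.36.

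Emp2 encodes an epithelial membrane protein that acts on integrins at the cell surface, and it too was higher in all mutant samples. The gene (ENSMUSG00000022505) lies at chr16:10281749-10313968 on the minus strand. The control samples had 32.8, 38.2, 38.6 and 32.7 FPKM. The mutant samples had 47.0, 50.2 and 45.6 FPKM. The groups were apart, and here mutant sample 2, not mutant sample 1, was the highest. The means were 35.5 ± 3.27 (SD, n = 4) and 47.6 ± 2.34 (SD, n = 3), a ratio of 1.34, with a difference of 0.42 (standard error 0.0806) on the log2 scale. It was 0.43 without mutant sample 1 and 0.46 without mutant sample 1 and control sample 2, the samples highest in Pmp2.

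Emp3, a family member known from immune cells and glioma, followed mutant sample 1. The gene (ENSMUSG00000040212) lies at chr7:45918023-45921426 on the minus strand. The 4 control samples had 24.5, 21.4, 24.8 and 26.1 FPKM, and the 3 mutant samples had 49.0, 25.7 and 32.0 FPKM. Mutant sample 2 fell among the control samples, and mutant sample 1, the one highest in meningeal genes, was far above all others. The means were 24.2 ± 1.98 (SD, n = 4) and 35.6 ± 12.1 (SD, n = 3), and the log2 difference was 0.50 (standard error 0.185). It was 0.25 without mutant sample 1 and 0.19 when control sample 2 was left out as well.

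Emp1, which is found in many epithelia and rises in some injured tissues, did not separate the genotypes. The gene (ENSMUSG00000030208) lies at chr6:135362931-135383173 on the plus strand. The control samples had 20.4, 12.3, 13.7 and 10.8 FPKM. The mutant samples had 17.7, 14.7 and 13.5 FPKM. The highest and the lowest of the 7 values were both from control samples. The means were 14.3 ± 4.26 (SD, n = 4) and 15.3 ± 2.19 (SD, n = 3), and the log2 difference of 0.12 (standard error 0.194) ran from 0.01 to 0.30 with 1 sample left out and was -0.04 without control sample 2 and mutant sample 1.

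Of the genes of the Schwann cell programme, Prx encodes periaxin, which links the Schwann cell cortex through DRP2 to dystroglycan on the surface of the myelin unit. The gene (ENSMUSG00000053198) lies at chr7:27499324-27520214 on the plus strand, 18.4 Mb from Emp3. The control samples had 0.637, 0.559, 0.561 and 0.480 FPKM. The mutant samples had 0.949, 0.562 and 0.762 FPKM. All 7 values were below 1 FPKM, from 74 to 167 reads, with mutant samples 1 and 3 above and mutant sample 2 among the controls. The means were 0.559 ± 0.0643 (SD, n = 4) and 0.758 ± 0.193 (SD, n = 3), and the log2 difference was 0.24 (standard error 0.147), or 0.13 without mutant sample 1.

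Egr2 (Krox20), at chr10:67535475-67542188 on the plus strand (ENSMUSG00000037868), was set by 1 control sample. Among the controls it stood at 2.40, 0.684, 0.250 and 0.367 FPKM, and among the mutants at 0.626, 0.823 and 0.442 FPKM. Control sample 1 rested on 163 reads and the other 6 samples on 17 to 42 reads, and the genotypes overlapped. The means were 0.926 ± 1.00 (SD, n = 4) and 0.630 ± 0.190 (SD, n = 3). The log2 difference was -0.13 (standard error 0.415) and turned to 0.29 without control sample 1, so no direction can be read for this gene.

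**Figure D1:**
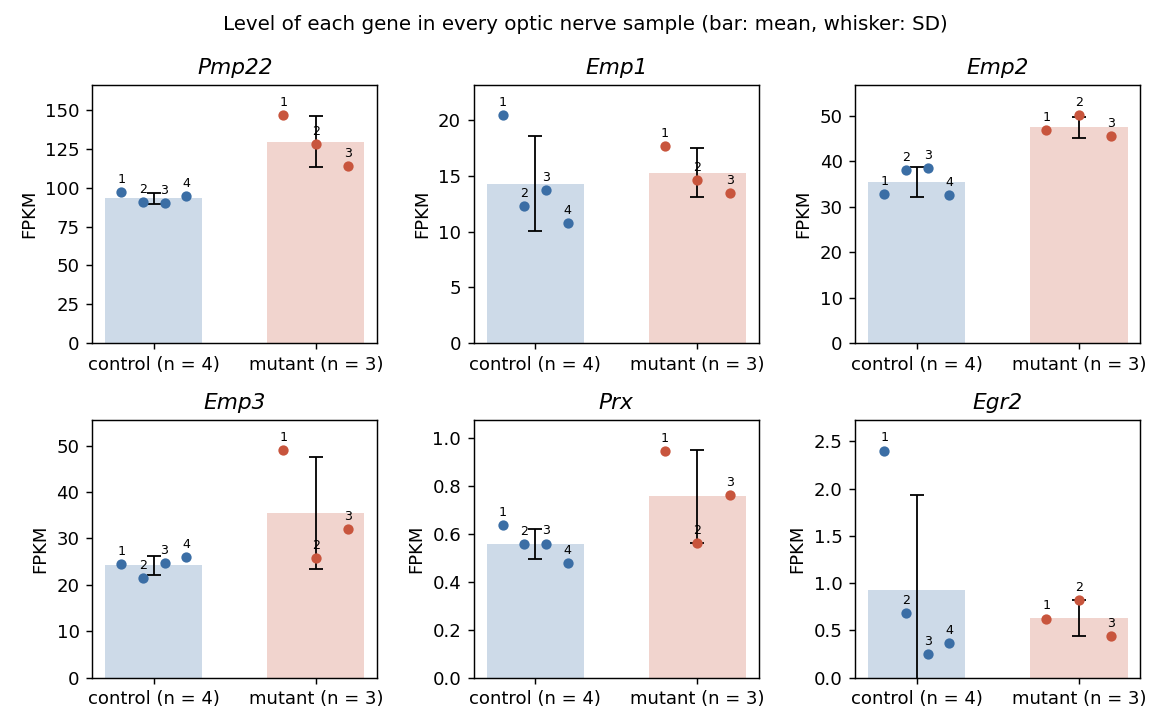
FPKM (vertical axis, linear and starting at 0, with its own range in each panel) of the 6 genes in the 4 control samples (blue) and 3 mutant samples (red). Points carry the sample number, bars are means and whiskers SD (cut at 0 for Egr2 in control samples); in Pmp22 and Emp2 all mutant samples lie above all control samples, and in Egr2 control sample 1 stands far above the rest.

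All 6 genes passed the filter on low values. Among them, 2 had an adjusted p under 0.05 in the fit across all genes (limma-trend), both higher in the mutant samples, and the same 2, Pmp22 and Emp2, were those whose groups did not overlap. Of all 13866 genes tested, 2.62% passed that threshold, 1.26% higher and 1.36% lower in mutant samples. Without regard to the threshold, 12.9% of all genes were higher in mutant samples without overlap and 8.26% were lower, where the 6 genes had 2 and 0. Both calls depended on the setting. With 1 sample left out, Pmp22 passed in 2 of 7 fits, those without mutant sample 1 and mutant sample 2, and Emp2 in 1 of 7, that without mutant sample 2. Both were lost with no filter on low values and without control sample 2 and mutant sample 1, and Emp2 also on the normalized counts, with median ratio scaling, with quantile normalization and with edgeR. Emp3 passed without mutant sample 2 and with DESeq2, while Emp1, Prx and Egr2 passed in none of the settings run. Because the genes were picked on this contrast, nothing is read from these counts. The estimated differences were above 0 in 5 genes and below 0 in Egr2, beside a median of 0.05 over all genes tested.

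**Figure D2:**
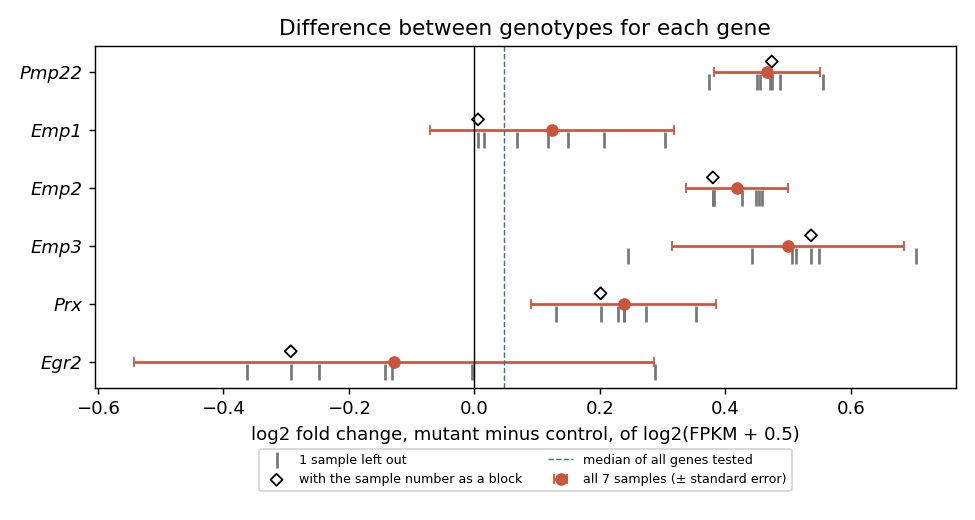
Difference between mutant and control samples for each gene, as log2 fold change of FPKM + 0.5 (horizontal axis). Red points with whiskers are the estimates from all 7 samples ± standard error, grey ticks the estimates with 1 sample left out, open diamonds those with the sample number as a block, and the dashed line is the median of all genes tested (0.05). The ticks of Pmp22 (0.37 to 0.56) and Emp2 (0.38 to 0.46) keep clear of 0, whereas those of Egr2 (-0.36 to 0.29) fall on both sides.

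Compared per transcript length, the order of the levels in control samples was Pmp22, Emp2, Emp3, Emp1, Egr2 and Prx. Within each control sample the FPKM of Pmp22 was 2.64 ± 0.331 (SD, n = 4) times that of Emp2, and Emp2 had 1.48 ± 0.238 times the level of Emp3. Emp3 was above Emp1 in all 4 control samples, with a ratio of 1.79 ± 0.503, and Emp1 was 8.50 to 54.8 times as high as Egr2. The last neighbours, Egr2 and Prx, did not differ beyond their spread, with Egr2 the higher in 2 of 4 samples. In mutant samples the ratio of Pmp22 to Emp2 was 2.72 ± 0.345 (SD, n = 3), and the ranges of Emp2 and Emp3 overlapped, since Emp3 exceeded Emp2 in mutant sample 1.

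Summed over the 4 family members, control samples held 167 ± 5.38 FPKM (SD, n = 4) and mutant samples 228 ± 28.9 (SD, n = 3). Pmp22 made up 55.7% ± 1.53 of this sum in control and 56.8% ± 1.59 in mutant samples, with all 7 samples between 53.9% and 58.6%. The share of Pmp22 in its family thus overlapped between the genotypes although its level did not. Emp1 took 11.7% of the sum in control sample 1 and 6.56% to 8.20% in the other 6 samples.

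The genes with the pattern most like that of Pmp22 over the 7 samples were sought among 12837 genes with a mean of at least 1 FPKM, by the root mean square difference of the centred log2 values, for which the median gene had 0.267. Cc2d2a, a gene of the ciliary transition zone, was the nearest (0.0329), followed by Snai2, a transcription factor of neural crest and mesenchyme (0.0475). Epb4.1l5 (0.0522), Thnsl2 (0.0546) and Cflar, an inhibitor of caspase 8 (0.0551), came next. Among its own paralogs, Emp2 ranked 733 (0.152), Emp3 2873 (0.210) and Emp1 7934 (0.292), the last being farther from Pmp22 than the median gene. The 5 nearest genes were chosen on these same samples, and their likeness is a description.

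Genes related to the 6 by function were grouped in 5 lists, which hold 124 gene names. Adgrg6 is among these also under its other name, Gpr126. Of the listed genes, 101 were tested. In the fit across all genes, 7 of the 101 passed the threshold (6.93%, beside 2.62% of all genes), 3 higher and 4 lower in mutant samples.

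In the list of Schwann cell and peripheral myelin genes, 25 of 29 genes were tested, and 2 fell and none rose. Both are also genes of OLs. Mag, the gene of an adhesion protein of the inner myelin membrane, fell from 2538 ± 138 FPKM (SD, n = 4) to 1859 ± 101 (SD, n = 3), with a log2 difference of -0.45 (standard error 0.0906, adjusted p = 0.0437, limma-trend). Cadm4, a partner of axonal adhesion molecules on myelinating glia, fell from 246.2 ± 11.8 to 196.7 ± 14.2 FPKM, by a log2 difference of -0.32 (adjusted p = 0.0486, limma-trend). With the sample number as a block, neither passed (adjusted p = 0.0726 for Mag and 0.0674 for Cadm4, limma-trend). In that fit 3 others did, Mpzl2 higher and Itgb4 and Sox10 lower, beside 8.36% of all genes.

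Mbp and Mal, among the genes of this list with the highest FPKM, encode proteins of myelin in OLs and Schwann cells. Mbp had 26382 ± 2482 FPKM in control and 18797 ± 2207 in mutant samples (log2 difference -0.49, adjusted p = 0.147, limma-trend), and Mal had a difference of -0.19 (adjusted p = 0.425). The groups did not overlap in Mbp but did in Mal, whose highest value, 3182 FPKM, was that of mutant sample 2. The median difference of the list was -0.19, against 0.05 for all genes, and it was -0.15 without mutant sample 1.

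Among the tetraspan relatives of PMP22, 18 of 33 genes were tested, and again 2 fell and none rose. Cldn14, a claudin, fell from 21.1 ± 1.37 FPKM (SD, n = 4) to 15.9 ± 1.05 (SD, n = 3), with a log2 difference of -0.40 (adjusted p = 0.0388, limma-trend). Cldnd1, a claudin-domain gene of OLs, fell from 164.5 ± 8.01 to 129.7 ± 9.43 FPKM, by a difference of -0.34 (adjusted p = 0.0428, limma-trend). Cldn11, the claudin of the tight junctions in OL myelin, had 1718 ± 68.3 and 1491 ± 176 FPKM (difference -0.21, adjusted p = 0.224). The abundant Tmem47, a junction protein, went the other way without passing, from 64.7 ± 5.48 to 90.8 ± 14.9 FPKM (difference 0.48, adjusted p = 0.0651), and it passed without mutant sample 1 (adjusted p = 0.0256). The median over the list was 0.22, and 12 of its 18 differences were above 0, with the largest, 0.86, in Cldn10 (adjusted p = 0.0571). With the sample number as a block the list held 5 calls, Perp, Cldn10 and Cacng5 higher and Cldn14 and Cldnd1 lower, where 8.36% of all genes passed.

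In the list of EGR factors, NAB cofactors and inputs of the EGR2 programme, 22 of 25 genes were tested, and 3 rose and none fell. Tead1, a DNA-binding partner of YAP and TAZ, rose from 19.3 ± 2.52 FPKM (SD, n = 4) to 28.4 ± 2.58 (SD, n = 3), with a log2 difference of 0.55 (adjusted p = 0.0437, limma-trend). Yap1 itself, the coactivator of the Hippo pathway, rose from 17.3 ± 0.959 FPKM to 29.9, 22.2 and 23.0 FPKM (SD 4.23) in mutant samples 1 to 3, by 0.51 (adjusted p = 0.0451, limma-trend). Id2, which holds back differentiation by binding bHLH factors, rose from 42.5 ± 3.09 to 60.1 ± 5.12 FPKM, by 0.49 (adjusted p = 0.0253, limma-trend). These genes are expressed in astrocytes and other cells as well, and astrocyte markers were higher in mutant samples too, as given with the other cell types. The part of that in their rise was not tested.

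Sox10, the factor that acts with EGR2 in Schwann cells and with MYRF in OLs, was close to the threshold, with 142.8 ± 14.4 and 109.8 ± 2.27 FPKM (log2 difference -0.37, adjusted p = 0.0502, limma-trend), and passed with the block (adjusted p = 0.0473). Zeb2 had a difference of -0.20 (adjusted p = 0.236) and Id4 of 0.34 (adjusted p = 0.132). With the block, 5 genes of the list passed, Tead1, Yap1, Id2 and Wwtr1 higher and Sox10 lower, beside 8.36% of all genes. Egr1, the immediate early relative of Egr2, had 3.93 ± 1.36 and 5.87 ± 3.60 FPKM (adjusted p = 0.541). The median of the list was 0.24 and dropped to 0.10 without mutant sample 1.

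The calls in these lists were lost in most fits that left out 1 sample. Over all genes such fits gave 6 to 907 calls, against 363 with all 7 samples. Mag, Cadm4, Cldn14, Cldnd1, Yap1 and Tead1 each passed the threshold in 1 of the 7 fits that left out 1 sample, the one without mutant sample 2, and Id2 passed in 3, those without control sample 1, mutant sample 1 and mutant sample 2. Over these fits the adjusted p of limma-trend ran from 0.0359 to 0.145 for Mag, from 0.0303 to 0.151 for Cadm4, from 0.0322 to 0.127 for Cldn14 and from 0.0293 to 0.122 for Cldnd1. It ran from 0.0344 to 0.132 for Yap1, from 0.0421 to 0.122 for Tead1 and from 0.0238 to 0.0981 for Id2. The directions of these 7 genes were the same in all 7 fits. All 7 calls were lost with no filter on low values and without control sample 2 and mutant sample 1. Over the settings that leave out no single sample the adjusted p ran from 1.29e-07 with DESeq2 to 0.155 for Mag, which was also lost on the normalized counts and with quantile normalization, and from 0.00165 to 0.142 for Cadm4, which was also lost on the normalized counts, with median ratio scaling and with edgeR. Over the same settings it ran from 0.000644 to 0.147 for Sox10 and from 0.0141 to 0.133 for Tmem47.

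The proteins that bind PMP22, the EMPs or periaxin include the chaperone calnexin, integrins, dystroglycan and its ligands, and ERM proteins. All 27 of their genes were tested and none passed with limma-trend. An unadjusted p under 0.05 was found in 12 of the 27, beside 24.4% of all genes. The most abundant were Itgb1 (223.7 ± 16.3 and 231.6 ± 4.45 FPKM, adjusted p = 0.673), Lamb2 (143.3 ± 37.3 and 209.4 ± 77.0 FPKM, adjusted p = 0.244) and Canx (122.5 ± 6.29 and 126.8 ± 7.18 FPKM, adjusted p = 0.678). Lamb2, the gene of a laminin chain of vessels and meninges, was highest in mutant sample 1 with 297.4 FPKM. Drp2, the partner of periaxin, had 4.73 ± 0.385 and 5.88 ± 0.957 FPKM (adjusted p = 0.195). With the block 7 genes passed, Abca1, Dag1, Lama2, Lamb2, Ezr and Ahnak higher and Itgb4 lower, beside 8.36% of all genes. With edgeR's quasi-likelihood test 1 gene passed, beside 2.89% of all genes, and with DESeq2 6 did, beside 12.3% of all genes.

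Of 21 other genes of inherited demyelinating neuropathy, 20 were tested and none passed with limma-trend, with the block or with edgeR, against 2 with DESeq2 and 5 at an unadjusted p under 0.05, where these 2 tests took 12.3% and 24.4% of all genes. Ndrg1, which acts in Schwann cell trafficking, had 405.2 ± 42.3 and 434.6 ± 57.8 FPKM (adjusted p = 0.628, limma-trend), Sbf1, a partner of myotubularin phosphatases, had 245.9 ± 23.4 and 210.5 ± 9.12 FPKM (adjusted p = 0.149), and Litaf, an endosomal protein, had 116.7 ± 7.15 and 108.5 ± 8.10 FPKM (adjusted p = 0.398). The median of this list was 0.05, as for all genes.

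**Figure D3:**
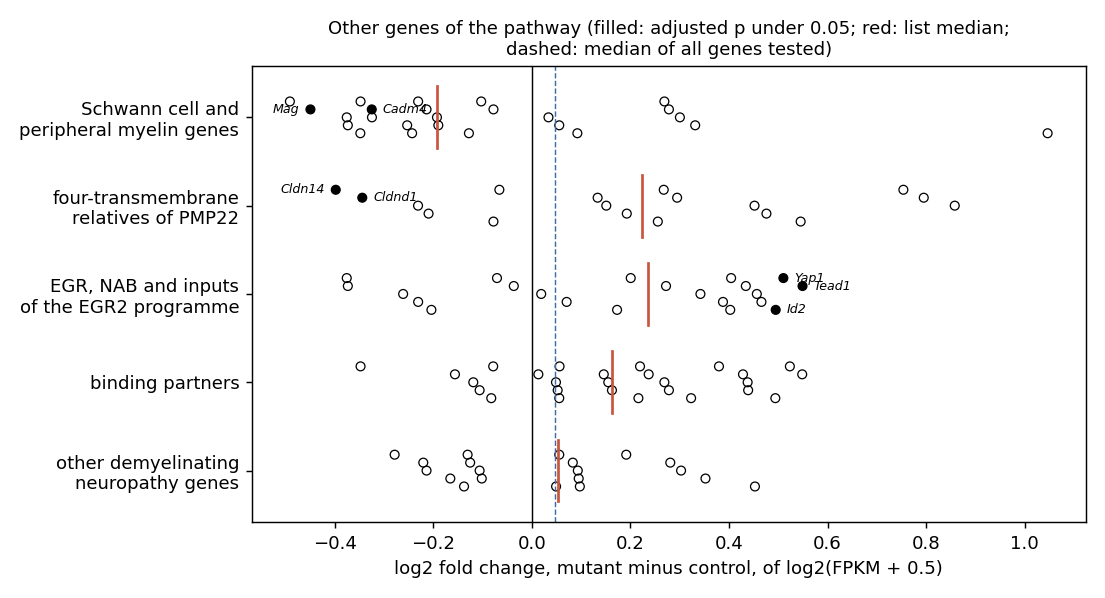
Log2 fold change of FPKM + 0.5 between mutant and control samples (horizontal axis) for each tested gene of the 5 lists (rows, with points shifted vertically for legibility). Filled points are the 7 genes past an adjusted p of 0.05, red bars the list medians and the dashed line the median of all genes (0.05). The median of the Schwann cell and peripheral myelin list lies below 0 (-0.19) and those of the tetraspan and EGR lists above it (0.22 and 0.24).

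The cell types whose markers moved with the family members were looked at in each sample. Endothelial markers summed to 101 to 123 FPKM in control and 131 to 148 in mutant samples, with 4 of 6 genes apart but none past the threshold. Arachnoid barrier markers summed to 5744 to 6685 FPKM in control samples and to 14704, 7496 and 10453 in mutant samples 1 to 3. Almost all of this came from 1 gene, Ptgds, with 5678 to 6619 FPKM in control and 14540, 7427 and 10360 in mutant samples. In this list 3 of 4 genes were apart and none passed the threshold. Meningeal fibroblast markers summed to 1943 to 2723 FPKM in control and to 4938, 2589 and 2967 in mutant samples, with 2 of 9 apart and none past the threshold. Among all genes tested, 12.9% were apart and higher in mutant samples, and 1.26% were higher past the threshold. Mutant samples 1, 3 and 2 had the same order, from high to low, in Emp3 and in the sums of both meningeal lists. Pmp22 had the order 1, 2 and 3, as had the endothelial sum, but no single endothelial marker had that order. Of the 6 endothelial markers, 2 were highest in mutant sample 1 and 4 in mutant sample 2.

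Among the cells of the nervous system, astrocyte markers summed to 2432 to 2780 FPKM in control and to 3089 to 3714 in mutant samples. Of the 6 genes, 5 were apart and higher and 3 were higher past the threshold, beside 12.9% and 1.26% of all genes. In the OL markers 2 of 7 fell past the threshold and none rose, beside 1.36% of all genes lower and 1.26% higher. The sums of Schwann cell, mural cell, microglia and neuron and retina markers overlapped between the genotypes, with 74 to 112 against 104 to 121 FPKM for mural cells, 226 to 272 against 258 to 299 for microglia and 31.6 to 39.5 against 35.6 to 52.6 for neurons and retina. None of the 5 Schwann cell markers that were tested passed the threshold, and the other 3 were under the filter on low values. Whether vessels, meninges or astrocytes carry the Pmp22, Emp2 and Emp3 RNA measured here was not tested.

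**Figure D4:**
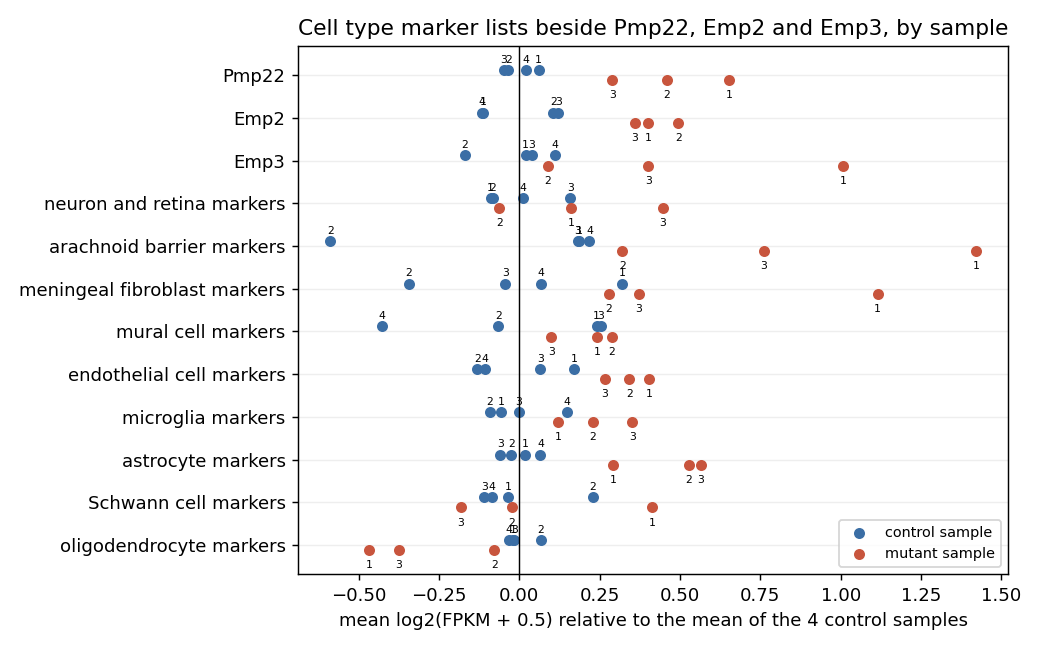
Mean log2(FPKM + 0.5) of each cell type marker list, and log2(FPKM + 0.5) of Pmp22, Emp2 and Emp3, relative to the mean of the 4 control samples (horizontal axis), in control (blue) and mutant (red) samples with their numbers. Mutant sample 1 lies far to the right in the arachnoid barrier and meningeal fibroblast lists and in Emp3, and the OL list lies to the left of 0 in all 3 mutant samples.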

How the data were processed

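Poly-A RNA of P14 optic nerves from 4 control and 3 mutant mice was made into stranded libraries and read from a single end. The authors cleaned the reads, aligned them with STAR (2.5.1b) to GRCm38 with Ensembl annotation, quantified genes with RSEM (1.2.22) and tested with edgeR. They deposited 1 table of 22880 genes with 14 sample columns. For every sample it gives a signal that the authors obtained as the RSEM estimate over a size factor (normalized count) and an FPKM value, which the authors scaled for gene length and library size. How the size factors were made and whether strand was used in counting are not given in the sources used here, and no deposited gene overlaps 1 of the 6 members or Fasn. The authors' log2 fold change, p-value and FDR were not used.

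Samples were grouped by their labels. The main test was limma-trend (limma 3.58.1, R 4.3.3) on log2(FPKM + 0.5), for the 13866 genes that reached 0.5 FPKM in 3 or more samples, with genotype as the only term, all 7 samples and Benjamini-Hochberg adjustment over all genes tested (threshold 0.05). This scale understates changes of low genes. Steps in the low values gave the reads behind each count, of which 73.7% to 78.3% of values between 0.5 and 10 reads were whole within 0.02 reads, the rest being fractions from RSEM. Rounded, they gave depth (27457249 to 43463397 reads) and entered edgeR's quasi-likelihood test (4.0.16) and DESeq2 (1.42.0) as alternatives. The fits were tested on simulated data.

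The members and lists were chosen with earlier results of these data known. The rule for naming genes takes the 6 members, Fasn, the calls and the 3 genes of highest mean FPKM of each list, the 5 genes nearest to Pmp22 and marker genes, and the other list genes in the text were chosen after their values were seen. Coding sequences were read from GENCODE M21 (GRCm38) and start windows from RefSeq (GRCm38.p6). Both genotypes carry sample numbers in the labels, whose meaning is not stated. Deviations of same-numbered samples from their group means correlated at 0.168, 0.409 and 0.270 across genes, and those of other pairs at -0.353 to 0.205. These ranges overlap. Equal numbers were treated as pairs in a further fit that blocks on them, in which control sample 4 adds nothing to the difference. The pairing was thus taken from the same data that this fit uses, and the labels do not give it. Other alternatives were other pseudocounts (0.1 and 1), no filter, a stricter filter (at least 1 FPKM in at least 4 samples), the normalized counts, median ratio scaling, quantile normalization, each sample left out, and, added after seeing the data, the count tests and a fit without control sample 2 and mutant sample 1, which stood apart in Schwann cell markers. Some genes that the rule names are not reported here. Replicates are separate mice.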

Additional observations from a re-analysis of the deposited data

Results flagged for a closer look

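Of 43 quantities examined for a sample far from the others of its group, 2 stood out in the control group, where chance gives about 1 in 20. Id2 had 47.1 FPKM in control sample 1, against 40.7 to 41.2 in the other 3 control samples, and all of these lay below the mutant samples. The neuron and retina markers summed to 39.5 FPKM in control sample 3, against 31.6 to 32.3 in the other 3 control samples. The mutant group of 3 was too small for this comparison.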

How the results depend on the processing

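The log2 differences of the members moved by less than 1 SD between replicates under all alternatives run, except that of Emp3, which fell to 0.19 without control sample 2 and mutant sample 1. With 1 sample left out they ran from 0.37 to 0.56 for Pmp22, 0.01 to 0.30 for Emp1, 0.38 to 0.46 for Emp2, 0.25 to 0.70 for Emp3, 0.13 to 0.35 for Prx and -0.36 to 0.29 for Egr2. On the normalized counts, with median ratio scaling and with quantile normalization, Pmp22 had 0.39, 0.42 and 0.49 and Emp2 0.35, 0.37 and 0.39. In the same order the median over all genes was -0.03, 0.01 and -0.02. Egr2 and Prx have no value under the stricter filter, which they did not pass, and Egr2, with 17 reads in its lowest sample, is limited by depth.

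Counts of calls moved more. Across all genes, 363 passed (175 higher, 188 lower), against 95 with no filter, where more genes were tested, 1710 with DESeq2, 51 without control sample 2 and mutant sample 1, and 6 to 907 with 1 sample left out. The replicate block gave 1159 (890 higher, 269 lower). The split was 103 higher and 267 lower on the normalized counts, 135 and 221 with median ratio scaling, and 141 and 281 with quantile normalization. Calls in the Schwann cell and peripheral myelin list (2) were 0 with no filter, 9 with DESeq2, 0 without control sample 2 and mutant sample 1 and 0 to 6 with 1 sample left out. For the tetraspan list (2) the same 4 settings gave 0, 7, 1 and 0 to 4, and the replicate block gave 5. For the EGR list (3) they gave 0, 7, 0 and 0 to 5, with 5 on the normalized counts and 5 with the replicate block. The partner list (0) had 6 calls with DESeq2, 1 with edgeR, 1 on the normalized counts, 7 with the replicate block and 0 to 2 with 1 sample left out. The neuropathy list (0) had 2 with DESeq2. Quantile normalization gave Mbp no difference, since it sets genes of the same rank in each sample to the same value. The cause of the other shifts was not tested. The block changed no other call of a list gene than those given beside the results.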
